A study of Rattus norvegicus with 4 samples.

Results

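The thick ascending limb of the loop of Henle and the distal convoluted tubule are the stretches of the nephron that reabsorb salt without water and set the excretion of magnesium and calcium. Genes that mark these segments were followed in rat kidney allografts. The set was fixed by name as 10 genes, and 8 of them had a feature on the array, out of 14871 genes with 1 gene symbol. The 8 were Umod, Egf, Kcnj1, Bsnd, Cldn16, Slc12a3, Calb1 and Pvalb. Slc12a1 and Trpm6 were not analysed here.

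In the ascending limb, sodium, potassium and chloride enter together from the urine, potassium returns to the urine through an apical channel, and chloride leaves through basolateral channels. The resulting voltage drives magnesium and calcium between the cells. In the distal convoluted tubule a thiazide-sensitive cotransporter takes up sodium and chloride, and magnesium and calcium are taken up through the cells with the help of calcium-binding proteins. Uromodulin and the precursor of epidermal growth factor are made in these segments and pass into the urine, where both are used as readouts of tubule health.

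Lewis rats with an allogeneic kidney graft were given either an ApoE-mimetic peptide, modelled on apolipoprotein E and dosed at 6 mg/kg, or a control peptide. Injections into a vein were daily from the day of grafting, and the grafts were taken on day 4. Both groups carried an allograft, so no rejection-free kidney was compared, and the labels used here give neither the donor strain, the age of the rats nor any pooling of animals. Each of 4 two-colour Agilent arrays paired 1 ApoE-mimetic with 1 control sample, with ApoE-mimetic RNA in Cy5 on replicates 1 and 3 and in Cy3 on replicates 2 and 4. By its title the study is about protection of the graft by ApoE during acute rejection, and the arrays ask which transcripts differ between the peptides.

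Every value is a log2 ratio between the channels of 1 array, so no level of a gene in either group can be given, and fewer cells of a type cannot be told apart from less RNA per cell. The deposited table does not state its log base, which was taken as 2, or its direction. Here Cy5 was taken as the numerator and the sign of replicates 2 and 4 was changed, so that positive values lie on the ApoE-mimetic side. If the columns are Cy3 over Cy5, every sign turns. If the authors had already turned them, replicates 2 and 4 take the opposite sign, and fitted values for that reading are given as well. Replicates 1 and 3 carry the dyes the same way, but had a Pearson correlation of -0.238 across all 45220 features and -0.657 across the 13363 that were neither dim nor saturated, a description across features and not across independent samples. Ratios are given relative to the median gene of their array, which lay between -0.55 and -0.04 before centring. Replicate 4 had an SD of 1.26 over features, against 0.87 to 0.89 on the others, and its deposited median was -0.80 in the 10 leftmost grid columns of the array and 0.40 in the 10 rightmost. The number of arrays limits the precision.

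The stretches before the transcription start of 5 of the genes are shown because these 5 shared an order of signs over the arrays. Each line holds the 250 bases before the start as annotated by RefSeq on the GRCr8 assembly, written 5′ to 3′ on the strand of the gene. Capitals mark the string TATAAA, the letters of a TATA box, wherever it lies, and do not mean that it acts as one. Umod lies at chr1:183261017-183261266 on the minus strand, Egf at chr2:220976298-220976547 on the minus strand and Kcnj1, by the first of its starts in the table, at chr8:39037742-39037991 on the plus strand. Bsnd lies at chr5:126489390-126489639 and Slc12a3 at chr19:10675051-10675300, both on the minus strand.
Umod: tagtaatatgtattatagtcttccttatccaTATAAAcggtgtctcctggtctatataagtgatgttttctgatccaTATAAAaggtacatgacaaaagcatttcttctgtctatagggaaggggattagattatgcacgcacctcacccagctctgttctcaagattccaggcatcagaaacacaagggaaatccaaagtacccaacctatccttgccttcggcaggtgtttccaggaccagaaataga
Egf: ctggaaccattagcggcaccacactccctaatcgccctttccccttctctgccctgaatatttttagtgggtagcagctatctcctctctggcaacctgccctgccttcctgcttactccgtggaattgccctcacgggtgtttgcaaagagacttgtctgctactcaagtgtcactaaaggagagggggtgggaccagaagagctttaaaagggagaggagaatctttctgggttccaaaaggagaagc
Kcnj1: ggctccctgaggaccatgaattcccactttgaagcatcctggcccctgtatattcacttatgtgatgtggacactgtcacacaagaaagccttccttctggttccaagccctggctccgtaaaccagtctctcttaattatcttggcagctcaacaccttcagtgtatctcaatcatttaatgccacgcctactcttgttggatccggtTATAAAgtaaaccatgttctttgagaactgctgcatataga
Bsnd: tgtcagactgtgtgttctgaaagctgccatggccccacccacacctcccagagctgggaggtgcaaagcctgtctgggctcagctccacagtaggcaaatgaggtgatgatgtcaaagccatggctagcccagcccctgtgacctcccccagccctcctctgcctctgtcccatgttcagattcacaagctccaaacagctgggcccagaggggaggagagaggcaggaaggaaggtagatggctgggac
Slc12a3: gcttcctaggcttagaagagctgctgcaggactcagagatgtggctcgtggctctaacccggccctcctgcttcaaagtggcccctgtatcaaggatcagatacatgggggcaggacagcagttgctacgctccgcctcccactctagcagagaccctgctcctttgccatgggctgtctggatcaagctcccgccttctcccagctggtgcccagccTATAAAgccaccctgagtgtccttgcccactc

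RefSeq starts were at hand for 7 of the 8 genes, with 8 starts in all. TATAAA, searched on both strands, was present in 3 of these 8 stretches and in 12.9% of 33469 stretches of the same length. It lay 41 to 36 bases before the start of Kcnj1, 32 to 27 bases before that of Slc12a3, and at both 219 to 214 and 173 to 168 bases before that of Umod. The core letters of HNF1 factor sites, GTTAAT, searched likewise, was in 0 of the 8 and in 6.45% of all. The core letters of sites of estrogen-related receptors, AAGGTCA, were in 0 of the 8 and in 3.99% of all. Such a match is a string of letters and no evidence of binding.

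The secreted products Egf and Umod were 0.86 to 3.13 log2 units off the median gene on each of the 4 arrays, in either direction, and Egf had the widest range of the 8 genes, 5.86 log2 units. A feature is called dim or saturated here where more than 2 features share its exact value on an array or where it holds the shared value next to 0. Egf, which encodes the precursor of epidermal growth factor, had log2 ratios of -2.73, 0.87, 2.33 and 3.13 on replicates 1 to 4. Replicate 1 lay far on the control side, and the other arrays lay on the ApoE-mimetic side. The mean was 0.90 ± 2.60 (SD, n = 4), so the difference between peptides was smaller than the spread between pairs.

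Egf is measured by 10 features, all neither dim nor saturated. The annotation gives all 10 of them 1 transcript and no probe sequence, so they are not known to be different probes. On replicate 1 they lay between -3.11 and -2.14, and 0 of 10 were positive. On replicate 2 they lay between 0.41 and 1.60, on replicate 3 between 2.13 and 2.64, and on replicate 4 between 2.89 and 3.36, with 10 of 10 positive on each. The SD over features was 0.17 to 0.40 within an array, which is less than the SD of 2.60 between the arrays. Of all genes, 1.01% lay farther from the median gene than Egf on replicate 1, 21.1% on replicate 2, 2.05% on replicate 3 and 0.841% on replicate 4.

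**Figure D1:**
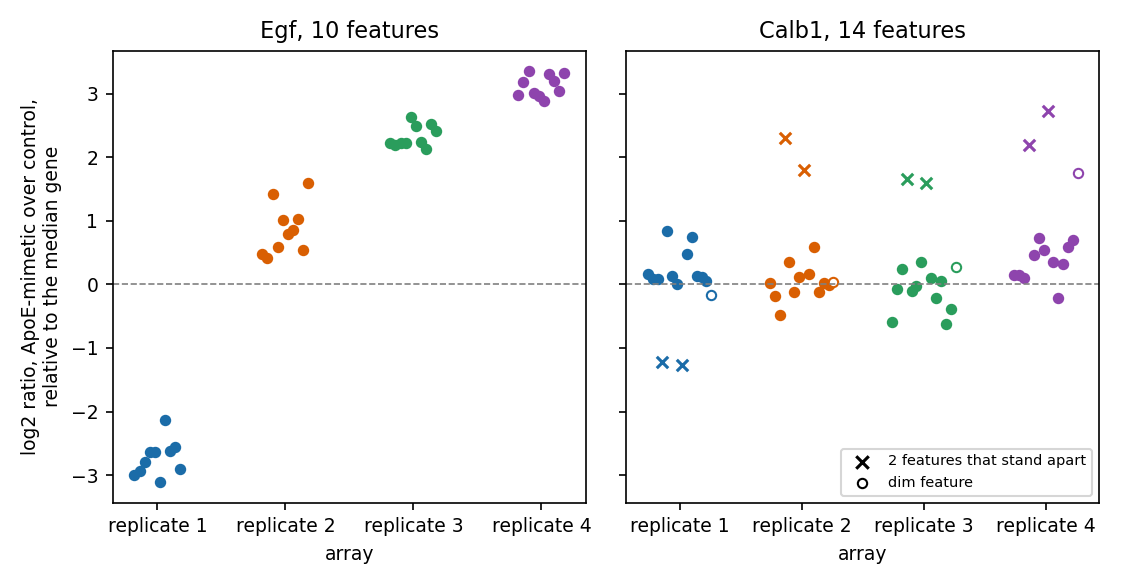
Each point is 1 array feature of Egf (left, 10 features) or Calb1 (right, 14 features), with the array on the x axis and the log2 ratio, ApoE-mimetic over control, relative to the median gene, on the y axis. The Egf features form 1 tight cluster per array, whereas 2 Calb1 features, drawn as crosses, lie away from the others on each array.

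Umod, which encodes uromodulin, the most abundant protein of normal urine, had log2 ratios of -1.15, 1.22, 0.86 and 1.10 on replicates 1 to 4. The 3 arrays on the ApoE-mimetic side lay close together and replicate 1 lay apart from them. The mean was 0.51 ± 1.12 (SD, n = 4). Umod has 1 feature, which lies in grid column 79 of 85, where replicate 4 is raised in its deposited form. With each grid column centred on its own median, the value on replicate 4 was 1.79 in place of 1.10.

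The channel genes of the limb followed the order of signs seen in Umod and Egf. Kcnj1, which encodes the apical potassium channel ROMK, had -1.42, 0.71, 1.32 and 0.83 on replicates 1 to 4. Replicate 1 was again on the control side, and the mean was 0.36 ± 1.22 (SD, n = 4). Its 1 feature lies in grid column 85, and with grid columns centred the value on replicate 4 was 2.03 and the fitted ratio 0.64 in place of 0.36. Bsnd, which encodes barttin, the subunit that brings basolateral chloride channels to the membrane, had -1.66, 0.53, 0.47 and 0.91. Its positive and negative values balanced, with a mean of 0.06 ± 1.17 (SD, n = 4). The fitted ratio of Bsnd turned to -0.01 with grid columns centred and to -0.04 with arrays scaled to 1 spread. Kcnj16 and Kcnj10, channel genes on the wider list of limb transport genes, did not follow the order of signs. Kcnj16 had -0.76, -0.53, 1.01 and 0.38 on replicates 1 to 4, and Kcnj10, which was dim, had -0.76, 0.57, 0.24 and -0.49.

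Cldn16 did not share the order of signs of Umod and Egf either. It encodes claudin-16, the tight junction protein through which magnesium and calcium pass between limb cells. Its ratios were 0.27, -1.78, 0.92 and 0.01 on replicates 1 to 4, with a mean of -0.14 ± 1.16 (SD, n = 4). The lowest value was on replicate 2, an array on which Umod and Egf were positive. The 1 feature of Cldn16 shared its value with others on replicates 1 and 4, where 4 and 3 features held it, and counts as dim.

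In the distal convoluted tubule, Slc12a3, which encodes the thiazide-sensitive sodium chloride cotransporter, had ratios of -0.66, 0.46, 3.38 and 0.09 on replicates 1 to 4. Replicate 3 stood far above the others, and 0.155% of all genes lay farther from the median gene on that array. The mean was 0.82 ± 1.77 (SD, n = 4), and without replicate 3 the fitted ratio was -0.19. Its 1 feature counts as dim, since 4 features held its value on replicate 2 and 5 on replicate 4.

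The calcium-binding proteins of the distal and connecting tubule had the smallest mean distances from the median gene among the 8, 0.31 for Calb1 and 0.51 for Pvalb. Calb1, which encodes calbindin-D28k, had mean ratios over its 14 features of 0.01, 0.32, 0.16 and 0.76 on replicates 1 to 4, all positive, with a mean of 0.31 ± 0.32 (SD, n = 4). These means hide unlike features. A pair of features, both in grid column 17, averaged -1.24, 2.06, 1.63 and 2.46 on replicates 1 to 4, the order of signs of Umod and Egf. The other 11 features that were neither dim nor saturated averaged 0.26, 0.03, -0.11 and 0.36, close to the median gene. The annotation gives all 13 of them 1 transcript and no probe sequence, and why they part was not tested. The pair was singled out after its values were seen, and without it the fitted ratio of Calb1 was 0.16 in place of 0.31.

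Pvalb, which encodes parvalbumin, a calcium-binding protein of the early distal convoluted tubule and of fast muscle fibres, had 0.31, 0.05, 1.41 and -0.27 on replicates 1 to 4. The highest value was on replicate 3, as for Slc12a3, Kcnj1 and Cldn16. The mean was 0.37 ± 0.73 (SD, n = 4). Its 1 feature was dim, with between 5 and 78 features at its value on each array. Skeletal muscle genes, listed because muscle is another source of Pvalb, had medians of 0.12, 0.01, -0.14 and -0.91 on replicates 1 to 4, and 0 of 12 had a feature that was neither dim nor saturated.

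**Figure D2:**
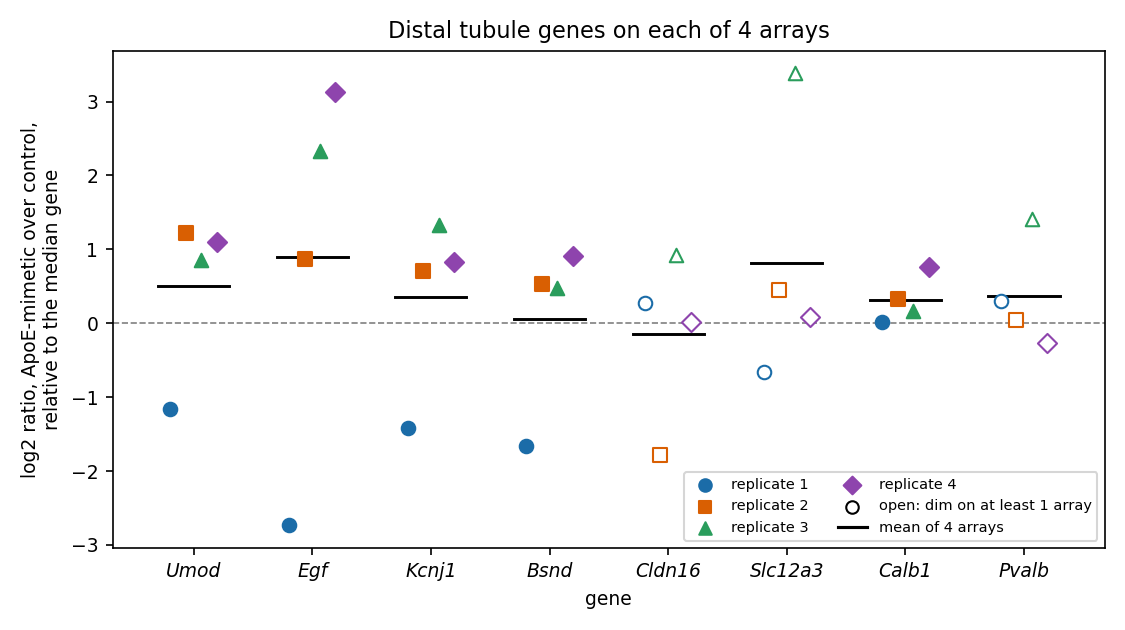
Each symbol is the log2 ratio, ApoE-mimetic over control, of 1 gene on 1 of 4 arrays relative to the median gene of that array (y axis), with genes on the x axis, bars at the mean of 4 arrays, and open symbols for genes dim on at least 1 array. Umod, Egf, Kcnj1, Bsnd and Slc12a3 lie below 0 on replicate 1 and above 0 on the other arrays.

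Over the 8 genes, 3 lay on the ApoE-mimetic side on replicate 1, 7 on replicate 2, 8 on replicate 3 and 7 on replicate 4. Their medians were -0.91, 0.49, 1.12 and 0.80, against 0 for all genes by construction. Of the 8, 5 were below the median gene on replicate 1 and above it on replicates 2, 3 and 4, namely Umod, Egf, Kcnj1, Bsnd and Slc12a3. Of all genes, 6% had this order of signs. Slc12a3 counts as dim, so of the 5 members with a feature neither dim nor saturated, 4 had the order. Of the 6731 such genes in all, 8.05% did. The order was noticed in these data and has no test.

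The distance from the median gene, averaged over the 4 arrays without regard to sign, does not depend on the direction of the columns. It was 2.27 for Egf, 1.09 for Umod, 1.07 for Kcnj1 and 0.89 for Bsnd, against a median of 0.38 over the 6731 genes with a feature neither dim nor saturated. Among those genes 0.579% were at least as far out as Egf, 4.99% as Umod, 5.17% as Kcnj1 and 8.26% as Bsnd. Calb1 was at 0.31, with 62.4% of those genes at least as far out.

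None of the 8 genes passed the test between the peptides. In limma, with a treatment and a dye coefficient fitted to all genes, 0 of 8 had an adjusted p under 0.05, and 0 of 14871 genes did (0%). At an unadjusted p under 0.05 there were 0 of the 8 genes and 504 of all genes (3.39%). The fitted ratio was 0.90 for Egf (SE 0.94), 0.82 for Slc12a3 (SE 0.70), 0.51 for Umod (SE 0.41) and 0.31 for Calb1 (SE 0.25), with an adjusted p of 0.9999 in limma for each. It was 0.37 for Pvalb (SE 0.30), 0.36 for Kcnj1 (SE 0.51), 0.06 for Bsnd (SE 0.43) and -0.14 for Cldn16 (SE 0.39), again with an adjusted p of 0.9999 in limma for each. These SEs rest on the spread between arrays of 1 dye orientation, moderated over genes. For Egf the arrays with ApoE-mimetic RNA in Cy5 differed by 5.07 and those with it in Cy3 by 2.26. For Umod these gaps were 2.02 and 0.12, for Kcnj1 2.75 and 0.12, and for Bsnd 2.13 and 0.38. For each of these 4 genes replicates 1 and 3 lay on opposite sides of the median gene.

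If the authors had turned the columns before deposit, 0 of 14863 genes passed in limma (0%), and 457 had an unadjusted p under 0.05 (3.07%). On the control side then were Egf at -1.10 (SE 0.94), Bsnd at -0.66 (SE 0.43), Umod at -0.65 (SE 0.41), Kcnj1 at -0.41 (SE 0.51) and Calb1 at -0.23 (SE 0.25). On the ApoE-mimetic side were Cldn16 at 0.74 (SE 0.39), Slc12a3 at 0.54 (SE 0.70) and Pvalb at 0.48 (SE 0.30). Between these 2 fitted readings 6 of the 8 genes changed sign and Slc12a3 and Pvalb did not, though their signs too would turn with Cy3 as the numerator. The adjusted p was 0.9996 in limma for each. A single sign on all 4 arrays was seen for 1 of 8 genes, Calb1, under the first reading (10% of all genes) and for 0 of 8 under the other (11.4%). That of Calb1 rests on 0.01 on replicate 1, which was -0.20 before centring, and on the pair of features described above, since the other 11 averaged -0.11 on replicate 3.

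**Figure D3:**
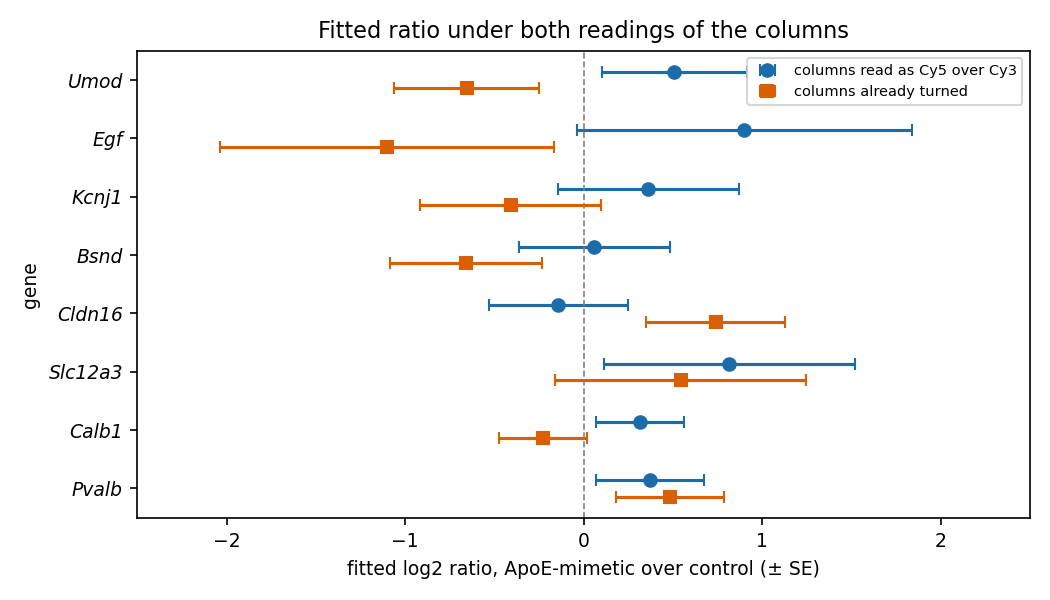
Points are fitted log2 ratios, ApoE-mimetic over control (x axis), with bars of 1 SE, for the 8 genes (y axis), with columns read as Cy5 over Cy3 (circles) and as turned before deposit (squares). Umod, Egf, Kcnj1, Bsnd, Calb1 and Cldn16 change side between the readings.

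The fitted values changed with the array left out. Without replicate 1, Egf was at 2.17, Slc12a3 at 1.83, Kcnj1 at 1.05, Umod at 1.01 and Bsnd at 0.59. Without replicate 3, these were at -0.37, -0.19, -0.33, 0.0045 and -0.47. These 5 genes are those below the median gene on replicate 1 and above it elsewhere, so leaving out replicate 1 must raise them. Calb1 was at 0.35 without replicate 1 and 0.28 without replicate 3, and Pvalb at 0.65 and 0.097. Cldn16 turned to 0.31 without replicate 2 and to 0.02 without replicate 1.

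Other genes of these segments were taken from 4 lists with 51 genes, of which 42 were measured and 26 had a feature neither dim nor saturated. In limma 0 of 42 had an adjusted p under 0.05 and 0 of 42 an unadjusted p under 0.05. The order of signs of Umod and Egf was found in 3 of 42, chosen here for it: Casr, the calcium-sensing receptor of the limb, Cul3, the ubiquitin ligase scaffold that degrades WNK kinases, and Nr3c1, the glucocorticoid receptor. Casr had -0.58, 0.55, 0.63 and 0.70 on replicates 1 to 4. The share is close to the 6% of all genes with that order.

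Transport genes of the limb, 13 measured of 17 listed, had medians of -0.58, -0.41, 0.63 and -0.03 on replicates 1 to 4. On replicate 2, 7 of the 8 genes were positive against 5 of these 13, and on replicate 4, 7 of 8 against 6 of 13. These differences were not tested. Cldn19, whose protein forms the cation pore together with that of Cldn16, had -0.36, -1.92, 0.41 and -0.03. The lowest array was replicate 2, as for Cldn16, but also as for Cldn10 and Cldn14, though not for Fxyd2. The match is thus not particular to the pair. Fxyd2, the gamma subunit of the sodium pump, had -1.82, -0.49, 1.56 and 0.73, and Cldn10, another claudin of the limb, had -0.41, -0.70, 0.16 and -0.56. Cldn14, which in mice blocks the pore formed by Cldn16, had 2.68, -3.06, -1.67 and -1.92 from 1 dim feature.

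Genes that set the activity of the cotransporters, 8 measured of 10 listed, had medians of -0.24, 0.20, 0.09 and -0.11 over members that went both ways. Wnk4, a kinase that acts on Slc12a3 through SPAK, had -0.23, 0.14, 0.96 and -0.14. Its highest array was replicate 3, as for Slc12a3. Replicate 3 was also the highest for the medians of the 8 genes and of the limb transport genes, but not for that of this list. Stk39, which encodes SPAK, had -0.81, -0.18, -0.16 and -0.41, below the median gene on each array, with a fitted ratio of -0.39 (SE 0.26) and an adjusted p of 0.9999 in limma. Wnk1 had 0.25, 0.55, -0.11 and -0.05.

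Genes of calcium and magnesium transport, 14 measured of 15 listed, had medians of -0.30, -0.61, 0.15 and 0.22 on replicates 1 to 4. Egfr, the receptor through which epidermal growth factor promotes magnesium uptake, had -0.41, -0.82, 0.27 and -0.57, a narrower range than its ligand gene Egf. Trpv6 had -0.49, -0.85, 0.73 and -1.77, and Atp2b1, a plasma membrane calcium pump, had -0.33, -1.27, -0.16 and -0.24. Trpv5, the apical calcium channel of the distal tubule, was dim, at 0.48, 0.19, -0.05 and 0.68. Transcription factors of the distal nephron, 7 measured of 9 listed, had medians of -0.16, -0.77, 0.20 and -0.30. Among them Irx2 had -1.40, -1.75, 1.16 and 0.33, and Sim2 had 0.80, -0.82, -0.24 and -1.58. Esrrb had -0.05, 0.56, -1.05 and -3.29 and was dim.

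Lists of other cell types of the graft were set beside the 8 genes, and in limma 0 of their members had an adjusted p under 0.05. Proximal tubule genes, 23 measured of 25 listed, had medians of -1.14, -1.29, 0.80 and 0.44 on replicates 1 to 4. They lay on the side of the 8 limb and distal genes on replicates 1, 3 and 4 and on the other side on replicate 2. There 7 of 8 limb and distal genes were positive, against 4 of 23 proximal genes, a difference that was not tested. The contrast is one of the 8 genes and not of their segments as a whole. On replicate 2 the wider lists had medians of -0.41 for limb transport, -0.61 for calcium and magnesium transport and -0.77 for distal transcription factors. Only that of the genes that set cotransporter activity was positive, at 0.20. Collecting duct genes, 18 of 18 measured, had medians of -1.23, 0.14, 0.92 and 0.64, on the side of the 8 genes on every array. On replicate 2 this was slight, with 10 of 18 positive. Over the 13 with a feature neither dim nor saturated the median there was 0.04. Of the 18 collecting duct genes, 6 had the order of signs of Umod and Egf, against 0 of 23 proximal tubule genes and 6% of all genes. That order was picked from these data, and the counts were not tested.

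T cell genes, 14 of 14 measured, had medians of 0.65, 1.63, -1.29 and 1.34 on replicates 1 to 4. Their side was that of the 8 genes on replicates 2 and 4, and the opposite one on replicates 1 and 3. Podocyte genes, 6 measured of 8 listed, had medians of -0.65, -0.54, 0.18 and 0.81. Endothelial genes, 8 of 8 measured, had -0.56, -0.26, 0.08 and 0.99. Only 3 of the podocyte and 4 of the endothelial genes had a feature neither dim nor saturated. Over these the medians were -1.24, 0.03, 0.77 and 1.46 for podocyte genes, and -0.77, -0.55, 0.04 and 1.13 for endothelial genes. The part of these cell types in the values of Umod, Egf and the others was not tested.

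**Figure D4:**
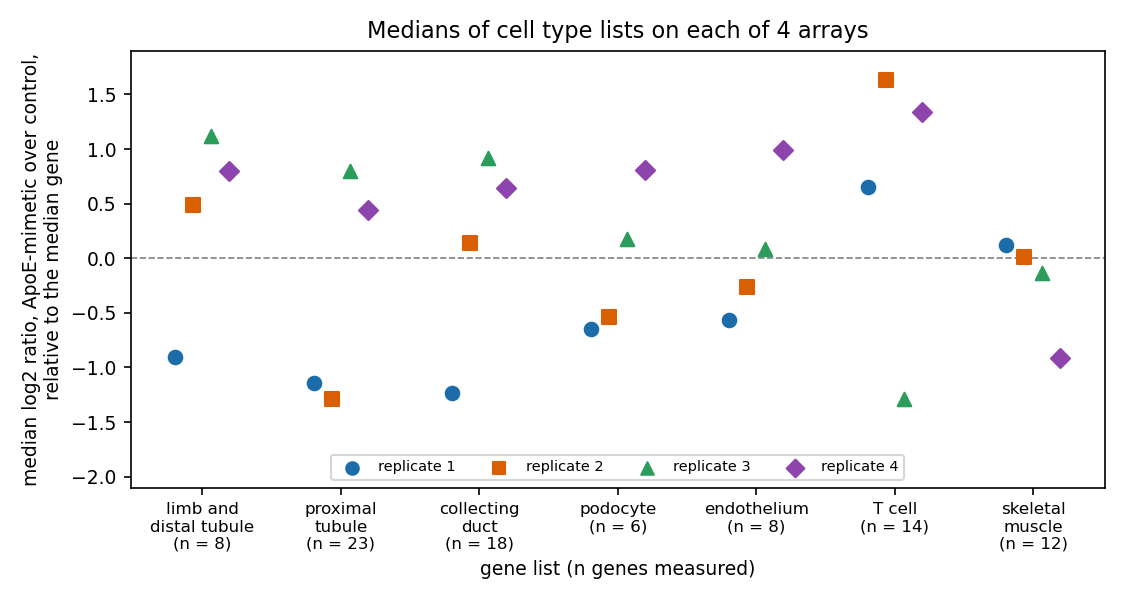
Each symbol is the median log2 ratio, ApoE-mimetic over control, of 1 gene list on 1 of 4 arrays relative to the median gene (y axis), with the lists and their measured genes on the x axis. On replicate 2 the 8 limb and distal tubule genes lie at 0.49 and the proximal tubule genes at -1.29, whereas both lie on 1 side on the other arrays. Wider lists of limb and distal genes, not drawn here, went both ways on replicate 2.

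The genes most like the set were sought among 6726 other genes with a feature neither dim nor saturated. The measure was the root mean square distance over 4 arrays from the median of Umod, Egf, Kcnj1, Bsnd and Calb1, which was -1.42, 0.71, 0.86 and 0.91 on replicates 1 to 4. The nearest were Mettl8 at a distance of 0.20, Nr0b2 at 0.24, Scnn1b at 0.29, Ccdc141 at 0.31 and Glrx at 0.33. The profile is made of the values of Umod, Egf, Kcnj1, Bsnd and Calb1, so their own distances were partly set in advance. These were 0.23 for Kcnj1, 0.25 for Bsnd, 0.31 for Umod, 0.82 for Calb1 and 1.49 for Egf, and are no yardstick for other genes. Scnn1b, which encodes the beta subunit of the epithelial sodium channel of the collecting duct, had -1.14, 0.26, 1.12 and 0.89. With 4 arrays, many genes can lie close to any profile.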

How the data were processed

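Total RNA of paired grafts was hybridised to 4 two-colour Agilent arrays, per the labels. The deposited table holds 1 value per feature and array, read here as a log2 ratio from its values; its log base and direction are unknown. The columns are not centred, with medians of -0.17, -0.04, -0.10 and -0.58 over the features of replicates 1 to 4, and how the arrays were scanned, background-corrected and normalized is not stated in those sources. The annotation gave 1 symbol for 25353 of 45220 features, several for 48 and none for 19819, and 25306 were found by gene number in a RefSeq table of GRCr8. Features of a gene were averaged, arrays were centred on their median gene, and a model with treatment and dye coefficients was fitted by limma 3.58.1 under R 4.3.3, with moderated variances and Benjamini-Hochberg adjustment over all genes, two-sided at a threshold of 0.05. The fitting code was run on simulated data with independent noise for each gene and known added changes. Those data held neither the left to right trend of replicate 4 nor the negative correlation of replicates 1 and 3. The run therefore checks the code and not the fit to these arrays. The genes, lists and naming rule were chosen with earlier results of these data known. Named beyond the 8 genes were up to 3 genes per segment list with the smallest unadjusted p, Fxyd2, Wnk4, Egfr, Trpv5, Cldn19 and the 5 nearest genes, of which Scnn1b is also on the collecting duct list. Casr, Cul3 and Nr3c1 are named for their order of signs, after their values were seen. Kcnj10 and Kcnj16 are named as channel genes set beside Kcnj1 and Bsnd, likewise after their values were seen. Lists of other cell types are given by medians and counts. Alternatives were the other reading of the columns, no dye term, no centring, scaling, dim features left out, medians over features, array weights, robust eBayes, grid centring and leaving out each replicate. Nothing in the labels says that each sample came from a separate animal beyond the word biological in the design, so p-values measure only the spread between these arrays within a dye orientation. Grid columns were read from the feature number, 85 to a row.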

Additional observations from a re-analysis of the deposited data

Results flagged for a closer look

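Umod on replicate 1, at -1.15, and Bsnd on replicate 1, at -1.66, lay apart from the other 3 arrays: the gap to the nearest other array was 0.848 of the whole range for Umod and 0.83 for Bsnd, above Dixon's 95% critical value for 4 samples. Chance alone gives such a gap in about 1 group in 20. The check covered 19 items, the 8 genes and the medians of the gene lists, and 2 were above, both of them genes. The 8 genes share 4 arrays and are not independent draws, and the share over all genes was not counted. With columns taken as already turned, Umod showed such a gap again, with replicate 3 apart at 0.942 of the range. Slc12a3 did at 0.858, and Bsnd did not, at 0.468. With grid columns centred under the first reading, Umod had -1.13, 1.20, 0.83 and 1.79, which spreads its other 3 arrays. Bsnd then had -1.75, 0.59, 0.55 and 0.57. The gap was not recomputed on these values.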

How the results depend on the processing

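Across 102 recomputed values of the 8 genes, none passed limma's adjusted threshold (lowest adjusted p 0.698), and 15 turned sign. With columns taken as already turned, Egf had -1.10, Bsnd -0.66, Umod -0.65, Kcnj1 -0.41, Calb1 -0.23 and Cldn16 0.74. Bsnd turned to -0.037 with scaled arrays and to -0.011 with grid columns centred, an alternative chosen after seeing the data, since the files give no grid position. When 1 replicate was left out, Egf ranged from -0.37 to 2.17, Slc12a3 from -0.19 to 1.83, Kcnj1 from -0.33 to 1.05, Bsnd from -0.47 to 0.59, Cldn16 from -0.59 to 0.31, Umod from 0.0045 to 1.01, Pvalb from 0.10 to 0.65 and Calb1 from 0.21 to 0.42. Calb1 was at 0.16 with the median over its features. Cldn16, Slc12a3 and Pvalb have no value without dim features. Genes of 1 sign on all 4 arrays numbered 1491 of 14847, and 572 of 6731 with dim features left out. Over 3 arrays, a looser requirement, they numbered 3045 to 3817, so these counts cannot be set against that over 4. The count of genes past the test was 0 in every fit. Counts at an unadjusted p under 0.05 ran from 95 of 6731 genes, with dim features left out, to 1183 of 14871, without replicate 2. The ratio within an array already pairs the samples, so no further replicate block was fitted. Features that share their value were taken to carry little information, a rule that rests on the shared ratios and not on any intensity. By that rule Cldn16, Slc12a3 and Pvalb are limited most.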
